A study of Homo sapiens with 4 samples.

Results

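The MYC, MAX and MXD network is the set of transcription factors built around MAX. It was taken as the rows of the deposited expression table whose gene name was MYC, MYCN, MYCL, MAX, MXD1, MXD3, MXD4, MNT, MGA or MLX, which gave 10 of the 60671 genes listed. The data are poly(A)+ RNA-seq of H9, a human embryonic stem cell line, grown in mTeSR medium. The sample titles name no drug treatment. The series has 2 groups of 2 libraries each. The control group is labelled only as control H9 cells, and in the study mock controls were clones that carried an empty vector. The other group is labelled CFIm25 KO+ 3Flag-CFIm25 overexpression and is called KO+OE here. CFIm25, the product of NUDT21, is a subunit of the CFIm complex that binds pre-mRNA near its 3′ end. Per the study's methods and results, its gene was edited with CRISPR/Cas9, with selection on puromycin and picking of single-cell clones. The study's edited clones had a short N-terminal deletion and kept a low level of the protein. The tagged protein was re-expressed by lentivirus in 1 clone. Edited cells without the tagged protein were not analysed here, so the comparison asks whether the network's transcripts differed between control cells and edited cells that had CFIm25 back.

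MAX is the shared subunit. It pairs with MYC, MYCN or MYCL, and such pairs bind the E-box CACGTG and activate growth genes, those of ribosome production, nucleotide synthesis and glycolysis among them. MAX also pairs with MXD1, MXD3, MXD4, MNT or MGA, which bind the same element and repress, the MXD proteins and MNT through SIN3 and histone deacetylases and MGA in a Polycomb complex, PRC1.6. MLX is a MAX-like protein that pairs with MXD1, MXD4 and MNT and with the glucose sensors MLXIP (MondoA) and MLXIPL (ChREBP). MYC is one of the reprogramming factors of pluripotent cells, and MYCN is highly expressed in embryonic cells.

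The element that these pairs bind was also found in the promoters of 3 of the members. RefSeq promoter windows (GRCh38.p14, 250 bases before to 50 bases after the transcription start, on the strand of the gene) were at hand for 9 of the 10 members, 12 windows in all. No window was at hand for MYC, which was therefore not searched. The palindrome CACGTG, searched as these letters and so on both strands at once, was in 1 window each of MXD4, MNT and MLX and in none of the others searched. The 30 bases around each match are shown, with the motif in capitals.
MXD4: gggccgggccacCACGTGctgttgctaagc
MNT: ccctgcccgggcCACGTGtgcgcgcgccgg
MLX: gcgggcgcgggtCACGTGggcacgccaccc
The MXD4 stretch is chr4:2262330-2262359 on the minus strand, and its motif begins 238 bases before the start. The MNT stretch is chr17:2401236-2401265 on the minus strand, with the motif 193 bases before the start. The MLX stretch is chr17:42567038-42567067 on the plus strand, with the motif 50 bases before the start. For comparison, 7.26% of all 35116 promoter windows and 9.48% of the 12963 windows of tested genes held the motif. A match is a description of the letters and does not show binding.

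All 10 members had a value above 0 in every library, and 8 had a mean of at least 1 TPM (a level scaled to the length of the transcript and to the total of the library) and were tested. None of the 8 passed the test between the groups, at an adjusted p under 0.05 in limma over all 12319 genes tested, a threshold that 1 gene passed (0.00812%). None of the 8 had an unadjusted p under 0.05 either, against 656 of all genes tested (5.33%). The 95% interval of the difference lay within 1.5-fold in either direction for each of the 8, against 71.0% of all genes tested. The median level was 17.3 TPM over the 8 and 7.77 TPM over all genes tested, and the intervals were not compared at like levels. The labels do not say that the replicates were separate cultures, so these p-values measure only the spread between these libraries.

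**Figure D1:**
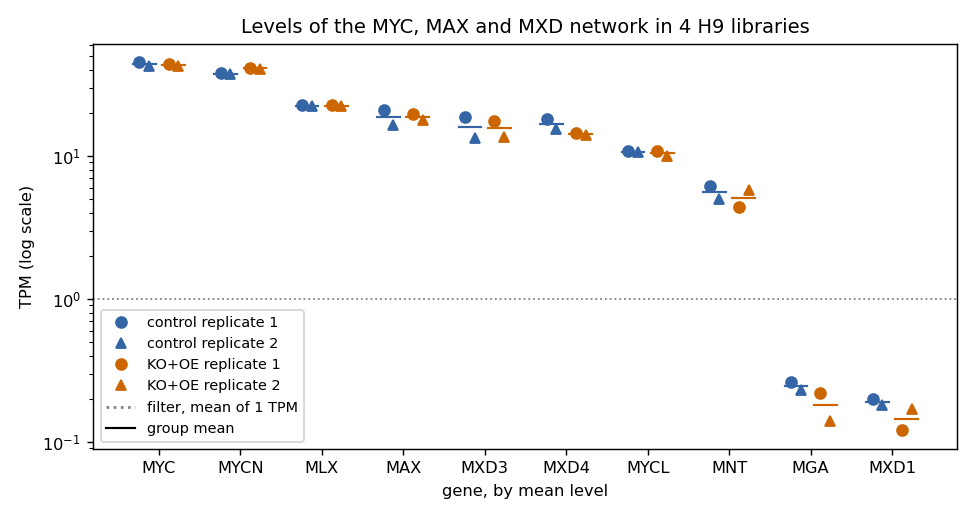
TPM of the 10 members (log axis) in each library, ordered by mean level. Circles are replicate 1, triangles replicate 2 and short lines group means of 2 libraries. MYC and MYCN lie between 37.40 and 45.13 TPM, and MGA and MXD1 lie below the dotted filter line at 1 TPM.

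The levels spanned a wide range. Over the 4 libraries the mean was 43.5 TPM for MYC, 39.4 for MYCN, 22.5 for MLX, 18.8 for MAX, 15.7 for MXD3, 15.5 for MXD4, 10.6 for MYCL, 5.33 for MNT, 0.213 for MGA and 0.168 for MXD1. Most neighbours in this order had ranges over the 4 libraries that did not overlap. The exceptions were MAX and MXD3, MXD3 and MXD4, and MGA and MXD1, whose order is not set beyond their spread. MYC stood at the 82.1st percentile of level among the genes tested and MNT, the lowest member tested, at the 41.4th. Across the 10 members, level had a Spearman correlation of -0.66 with the length of the canonical transcript and of 0.20 with its GC content. Across the tested genes with both values these were -0.19 and 0.27. The sets are unlike, since the 10 include MGA and MXD1, which were below the filter. Those members had the longest transcripts of the network, 12193 and 5549 bases.

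MYC (ENSG00000136997, chromosome 8, 127735434 to 127742951, GRCh38.p14) was the most abundant member. Its level was 45.13 and 42.45 TPM in the control libraries and 43.87 and 42.55 TPM in the KO+OE libraries. Both KO+OE values lay inside the control range. The log2 difference, KO+OE minus control on the scale log2(TPM + 1), was -0.018 (95% interval -0.16 to 0.13, adjusted p = 0.990, limma). Only MYCN had a narrower interval among the tested members.

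MYCN (ENSG00000134323, chromosome 2, 15940550 to 15947004), the family member first known from neuroblastoma, was 37.91 and 37.40 TPM in the control and 41.54 and 40.87 TPM in the KO+OE libraries. Both KO+OE libraries were above both controls. Such a gap is common in this design, since 14.5% of all genes tested had both KO+OE values above both control values. The log2 difference was 0.13 (-0.0016 to 0.26), with an unadjusted p of 0.0520 and an adjusted p of 0.931 in limma. It was positive whichever library was left out, between 0.12 and 0.14. The unadjusted p lay between 0.0292 and 0.146 over the alternative settings, and the adjusted p passed in none of them.

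MYCL (ENSG00000116990, chromosome 1, 39895428 to 39901917), the third activating partner, was the least abundant of the family. Its level was 10.84 and 10.63 TPM in the control and 10.79 and 10.03 TPM in the KO+OE libraries, and the groups overlapped. The log2 difference was -0.041 (-0.26 to 0.18, adjusted p = 0.988, limma).

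MAX (ENSG00000125952, chromosome 14, 65006101 to 65102695), the shared subunit, was 21.10 and 16.48 TPM in the control and 19.64 and 17.86 TPM in the KO+OE libraries. Both KO+OE values lay between the control values. The group means were 18.8 ± 3.27 and 18.8 ± 1.26 TPM (SD, n = 2 each), and the log2 difference was 0.0055 (-0.33 to 0.34, adjusted p = 0.996, limma). Leaving out control replicate 2 gave -0.16 and leaving out control replicate 1 gave 0.17, so its sign changed with the library left out.

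MLX (ENSG00000108788, chromosome 17, 42567100 to 42573203) was 22.53 and 22.40 TPM in the control and 22.77 and 22.24 TPM in the KO+OE libraries. The KO+OE values lay on either side of the control values, and no other tested member had so narrow a control spread. Its log2 difference was 0.0024 (-0.15 to 0.16, adjusted p = 0.996, limma). MLX stood 1.07-fold to 1.36-fold above MAX in TPM across the libraries.

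**Figure D2:**
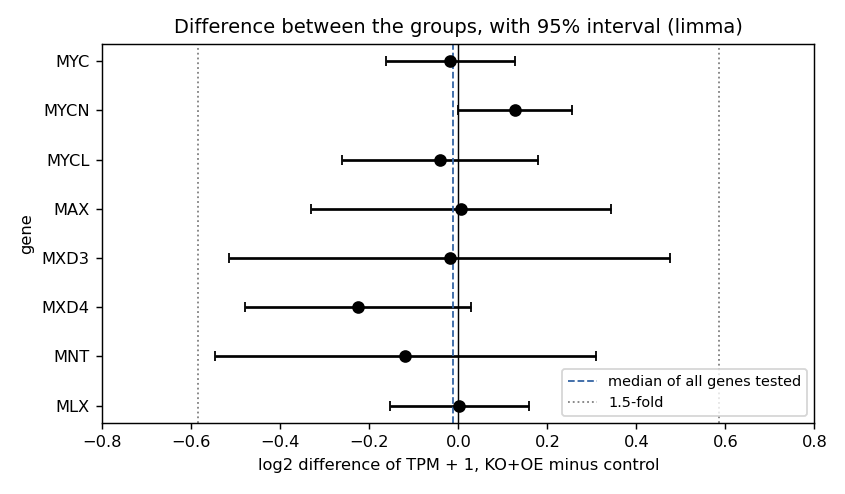
Log2 difference (KO+OE minus control, on log2(TPM + 1)) of the 8 tested members with limma's 95% interval. All intervals include 0 and lie inside the dotted lines at 1.5-fold, and the dashed line is the median of all genes tested, -0.012.

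Among the repressing partners, MXD4 (ENSG00000123933, chromosome 4, 2247432 to 2262109) had the largest difference of the network. MXD4 was 18.20 and 15.48 TPM in the control and 14.43 and 14 TPM in the KO+OE libraries. Both KO+OE libraries were below both controls, as in 19.6% of all genes tested. The log2 difference was -0.23 (-0.48 to 0.028), with an unadjusted p of 0.0709 and an adjusted p of 0.931 in limma. Without control replicate 1, the highest library, it was -0.12. With control replicate 2 left out instead it was -0.34, and the unadjusted p in limma was 0.0281. MXD4 is one of the 3 members with the E-box sequence shown above, and MNT and MLX, the other two, had values that overlapped between the groups.

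MXD3 (ENSG00000213347, chromosome 5, 177305499 to 177312752), a MXD protein known from proliferating cells, was 18.57 and 13.24 TPM in the control and 17.53 and 13.63 TPM in the KO+OE libraries. In both groups replicate 1 was higher than replicate 2, and both KO+OE values lay inside the control range. The log2 difference was -0.020 with the widest interval of the tested members, -0.52 to 0.48 (adjusted p = 0.992, limma). Leaving out control replicate 2 gave -0.25, and leaving out control replicate 1 gave 0.21.

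MNT (ENSG00000070444, chromosome 17, 2384073 to 2401060), the broadly expressed antagonist of MYC, was 6.14 and 5.03 TPM in the control and 4.39 and 5.77 TPM in the KO+OE libraries. The groups overlapped, and the KO+OE libraries lay farther apart than the controls. The log2 difference was -0.12 (-0.55 to 0.31, adjusted p = 0.974, limma), and it was 0.045 without KO+OE replicate 1.

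MXD1 and MGA did not reach the filter of 1 TPM. MXD1 (ENSG00000059728, chromosome 2, 69915109 to 69942945), a MXD protein linked to differentiation, was 0.20 and 0.18 TPM in the control and 0.12 and 0.17 TPM in the KO+OE libraries. MGA (ENSG00000174197, chromosome 15, 41621224 to 41769940), the scaffold of PRC1.6, was 0.26 and 0.23 TPM in the control and 0.22 and 0.14 TPM in the KO+OE libraries. In both genes the KO+OE values lay below the control values, by hundredths of a TPM in a table rounded to 2 decimals. Of all genes tested, which leave out MXD1 and MGA, 19.6% had both KO+OE values below the controls. With no filter, limma gave log2 differences of -0.056 for MXD1 (adjusted p = 0.880) and -0.078 for MGA (adjusted p = 0.873). The table holds no counts, so how many reads lie behind these values is unknown.

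Control replicate 1 was often the highest library for the network. It held the highest value of 8 of the 10 members, all but MYCN and MLX, and of 6 of the 8 tested, while it was the highest library for 27.0% of all genes tested. This pattern was noticed after the values were seen and is given as a description. The differences of MXD4, MXD3, MNT, MYC and MYCL were negative in the main fit. Leaving out the control library with their highest value could only raise them, so the rise itself shows nothing further. Without control replicate 1 the log2 difference was -0.12 for MXD4, 0.21 for MXD3, 0.0026 for MNT, 0.025 for MYC and -0.028 for MYCL.

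The sums over the partners show the balance of the network in each library. The activating partners MYC, MYCN and MYCL together were 93.88 and 90.48 TPM in the control and 96.20 and 93.45 TPM in the KO+OE libraries. The repressing partners MXD1, MXD3, MXD4, MNT and MGA together were 43.37 and 34.16 TPM in the control and 36.69 and 33.71 TPM in the KO+OE libraries. The groups overlapped in both sums. The log2 difference was 0.041 for the activating sum and -0.13 for the repressing sum, and the exact two-sided permutation p was 0.667 for each. With 2 libraries against 2 the smallest p this test can give is 0.333. Without control replicate 1 the repressing difference was 0.042, so its direction rested on that library.

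In every library the activating transcripts outweighed the repressing ones in TPM. The ratio was 2.16 and 2.65 in the control and 2.62 and 2.77 in the KO+OE libraries, and the log2 difference of 0.17 had an exact permutation p of 0.667. Leaving out control replicate 1 made that difference 0.026, and leaving out control replicate 2 made it 0.32. The activating transcripts made up 68.4% to 73.5% of the total of the activating and repressing sums. The MXD family member MXI1 is not part of these sums. Against MAX itself, the activating sum was 4.45-fold and 5.49-fold in the control and 4.90-fold and 5.23-fold in the KO+OE libraries. That ratio differed by 0.035 on the log2 scale (exact permutation p = 1). These are ratios of transcripts and say nothing of the amounts of protein or of pairs.

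**Figure D3:**
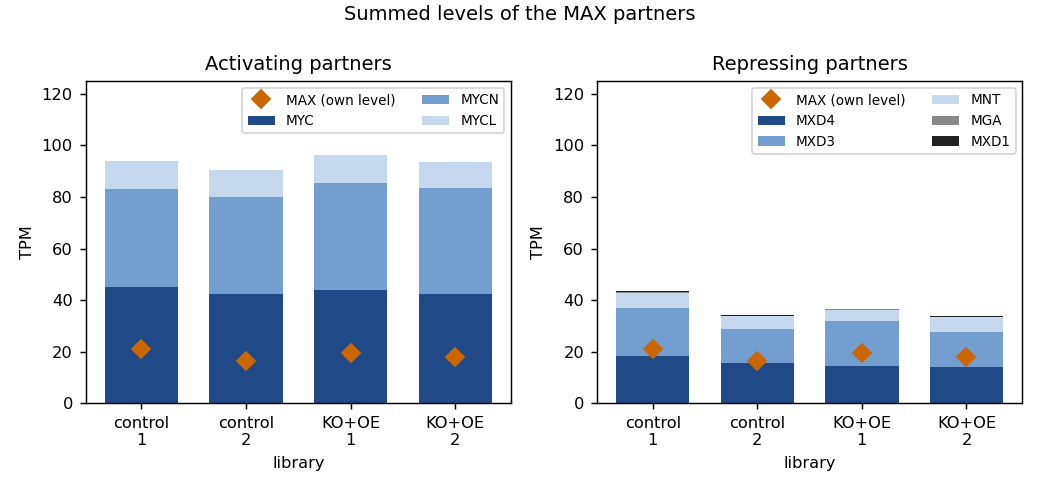
Stacked TPM of the activating partners (left) and of the repressing partners (right) in each library, with the level of MAX as a diamond. The activating stacks reach 90.48 to 96.20 TPM and the repressing stacks 33.71 to 43.37 TPM, and MXD1 and MGA are barely visible.

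Within the activating partners, MYC and MYCN came close to equal shares. MYC made up 48.1% and 46.9% of the family in the control and 45.6% and 45.5% in the KO+OE libraries. MYCN made up 40.4% and 41.3% in the control and 43.2% and 43.7% in the KO+OE libraries. MYC was thus 1.19-fold and 1.14-fold the level of MYCN in the control and 1.06-fold and 1.04-fold in the KO+OE libraries. The groups did not overlap in these shares, which were not tested. MYCL made up 11.5% and 11.7% in the control and 11.2% and 10.7% in the KO+OE libraries, which did not overlap either. For the levels of single genes, 14.5% of all genes tested had both KO+OE values above the controls and 19.6% had both below. No such figure was computed for parts of a sum. The shares depend on each other, and the level of MYCN itself did not overlap between the groups. Within the repressing partners, MXD4 and MXD3 took 39.3% to 45.3% and 38.8% to 47.8%, MNT took 12% to 17.1%, and MXD1 and MGA together took 0.920% to 1.2%.

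Around the network, 10 lists of related genes were followed, 98 genes in all, of which 83 passed the filter. None of the 83 passed the adjusted threshold in limma, and 2 had an unadjusted p under 0.05, PVT1 and NCL, both higher in KO+OE, against 5.33% of all genes tested. Whichever library was left out, neither kept an unadjusted p under 0.05 in limma (0.0625 to 0.109 for PVT1 and 0.0647 to 0.128 for NCL). NCL also did not keep it without the mean-dependent prior of the fit (0.116). Of the 83, 15 had both KO+OE values above the controls and 8 had both below, where the shares over all genes tested were 14.5% and 19.6%. The median log2 difference was -0.0075, beside -0.012 over all genes tested and -0.019 over the 8 tested members.

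The other proteins of the network are the MXD family member MXI1, the MLX partners MLXIP and MLXIPL, and ZBTB17 (MIZ1), through which MYC represses. All 4 were tested and overlapped between the groups. MLXIP was 10.34 and 8.77 TPM in the control and 8.77 and 8.29 TPM in KO+OE (log2 difference -0.14). MLXIPL was 7.20 and 6.68 TPM in the control and 8.95 and 6.30 TPM in KO+OE (0.10). MXI1 lay between 3.41 and 4.37 TPM and ZBTB17 between 14.32 and 18.17 TPM. With MXI1 counted among the repressing partners, the activating to repressing ratio lay between 1.98 and 2.52.

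Other factors that bind E-boxes were in part more abundant than MYC. TFE3 was 108.59 and 111.42 TPM in the control and 103.24 and 108.56 TPM in KO+OE, and USF2 lay between 99.03 and 105.99 TPM. SREBF1, a regulator of lipid synthesis, had the lowest log2 difference of the 6 tested, -0.17, and USF2 the highest, 0.016. Without control replicate 2, SREBF1 was at -0.022 and TFE3 lower, at -0.036. TFEB, MITF and TFEC did not reach the filter, and TFEC was listed at 0 throughout. The median over the 6 was -0.041.

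The members act through larger complexes. Of 12 tested coactivators of MYC, RUVBL2 was the most abundant, between 356.15 and 367.85 TPM. The acetyltransferase KAT2A had the highest log2 difference, 0.17, with 14.68 and 14.04 TPM in the control and 16.49 and 16.16 TPM in KO+OE. EP400 had the lowest, -0.094. The median over the 12 was -0.027.

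All 13 genes of the SIN3-HDAC corepressors, which the MXD proteins and MNT recruit, were tested. SIN3A, the scaffold that MXD proteins bind, was 7.43 and 7.94 TPM in the control and 6.45 and 6.16 TPM in KO+OE. Its groups did not overlap, and its log2 difference was -0.25 (-0.51 to 0.0064, unadjusted p = 0.0541, adjusted p = 0.931, limma). SAP30 had the highest log2 difference, 0.24 (-0.30 to 0.79), at 1.36 to 2.53 TPM. Without KO+OE replicate 1 it was 0.065, and without control replicate 1 it was 0.089. SAP18 had the highest level, 135.01 to 147.31 TPM. Of the 13, 3 had both KO+OE values above the controls and 3 had both below, beside 14.5% and 19.6% of all genes tested. The median was -0.0041.

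Of the PRC1.6 partners of MGA, 7 of 9 were tested although MGA itself was not. E2F6, a repressor that recruits the complex, was 7.89 and 7.32 TPM in the control and 5.99 and 6.55 TPM in KO+OE (log2 difference -0.24, unadjusted p = 0.0684, adjusted p = 0.931, limma). TFDP1, its dimer partner, was 23.15 and 24.18 TPM in the control and 31.90 and 24.17 TPM in KO+OE. Its log2 difference of 0.22 was 0.030 without KO+OE replicate 1. The median over the 7 was -0.076, but 0.020 with a filter at a mean of 5 TPM, 0.018 without control replicate 2 and 0.030 without KO+OE replicate 1.

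Among genes that set the stability of MYC protein, the 6 tested and reported had log2 differences between -0.065 (HUWE1, a ubiquitin ligase) and 0.058 (GSK3B, a kinase of MYC). SET, an inhibitor of the phosphatase PP2A, was the most abundant of them, at 103.15 and 105.50 TPM in the control and 106.42 and 98.44 TPM in KO+OE (log2 difference -0.027). FBXW7, which marks phosphorylated MYC for degradation, did not reach the filter.

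**Figure D4:**
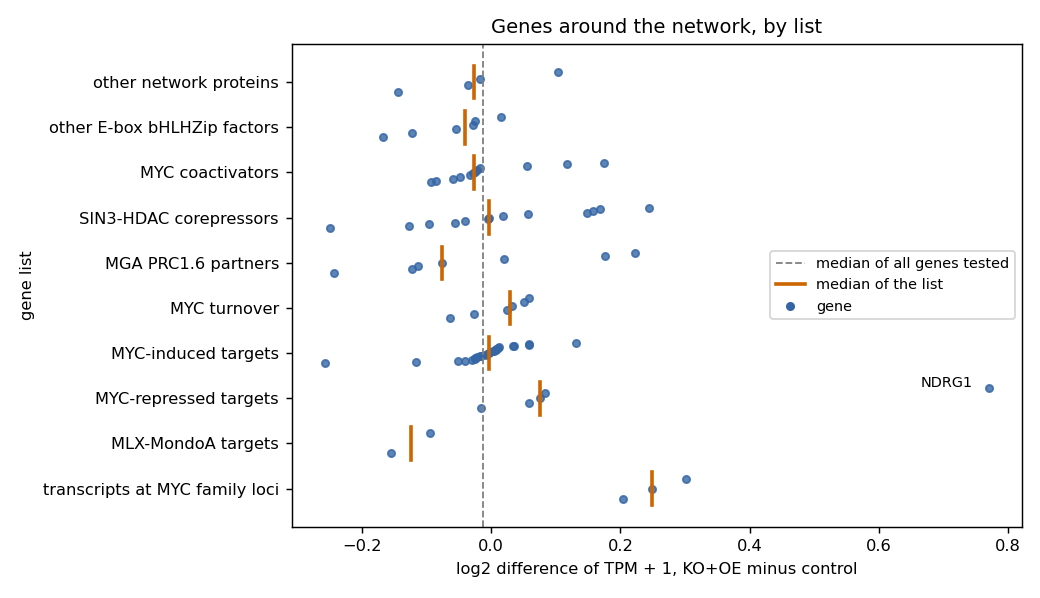
Log2 difference (KO+OE minus control, on log2(TPM + 1)) of each tested gene of the 10 lists around the network. Blue points are genes, orange bars list medians and the dashed line the median of all genes tested. Most points lie within 0.3 of 0, and NDRG1 stands apart at 0.77.

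Activity of the factors is often read from their target genes. All 25 genes of the list activated by MYC were tested, and none passed the adjusted threshold. Their median log2 difference was -0.0032, with 11 positive and 14 negative values. NCL (nucleolin, of ribosome production) was 51.43 and 52.73 TPM in the control and 56.52 and 57.81 TPM in KO+OE. Both KO+OE libraries were higher, as in 14.5% of all genes tested. The log2 difference was 0.13 (0.012 to 0.25, unadjusted p = 0.0368, adjusted p = 0.928, limma). PTMA, the most abundant target, lay between 3906.82 and 4083.44 TPM. EIF4E, a translation initiation factor, had the lowest log2 difference, -0.26, from 8.14 and 8.45 TPM in the control and 5.36 and 8.50 TPM in KO+OE. It was 0.032 without KO+OE replicate 1. The motif CACGTG was in 11 of the 27 promoter windows of this list (40.7%), where windows of tested genes had 9.48%. The genes were chosen as targets of MYC, whose pairs bind this motif, so the share is a description and no test.

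Of 6 genes that MYC represses, 5 were tested, with a median log2 difference of 0.076. NDRG1, a stress-induced gene, was 4.83 and 5.55 TPM in the control and 6.41 and 14.01 TPM in KO+OE. One library carried most of its log2 difference of 0.77 (-0.10 to 1.64, unadjusted p = 0.0721, adjusted p = 0.931, limma), which was 0.26 without KO+OE replicate 2. CDKN1A, the p21 inhibitor of the cell cycle, lay between 154.59 and 166.28 TPM with a log2 difference of -0.016. Of the targets of MLX with MLXIP or MLXIPL, TXNIP was 7.81 and 7.16 TPM in the control and 7.21 and 6.68 TPM in KO+OE. PKLR was 6.03 and 6.49 TPM in the control and 6 and 5.07 TPM in KO+OE. Their log2 differences were -0.095 and -0.15.

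Transcripts that lie at the loci of the MYC family, and pseudogenes of members, were also looked at. Reads could be shared where a transcript overlaps a member or is a near-identical copy of it. PVT1, the long noncoding RNA next to MYC, was 16.54 and 16.37 TPM in the control and 19.46 and 18.77 TPM in KO+OE. Both KO+OE libraries were higher, as in 14.5% of all genes tested. The log2 difference was 0.20 (0.032 to 0.38, unadjusted p = 0.0286, adjusted p = 0.928, limma), while MYC itself differed by -0.018. MYCNOS, antisense to MYCN, was 3.91 and 3.62 TPM in the control and 4.26 and 5.09 TPM in KO+OE, with a log2 difference of 0.25 (-0.099 to 0.60). Whether counting used the strand is not given in the sources used here, so reads of MYCN and MYCNOS may not be told apart where they overlap. MLXP1, a pseudogene of MLX, was 0.98 and 0.82 TPM in the control and 1.06 and 1.66 TPM in KO+OE. Reads of near-identical copies can be split between them, so the levels of MLX and MLXP1 are uncertain to that extent. MYCNUT, MYCLP1 and MYCLP2 were listed at 0 in all 4 libraries. In the RefSeq annotation MYCL, MAX, MXD1, MXD3, MXD4, MGA and MLX also overlap other genes, so their values carry the same limit.

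The checks on the libraries were as follows. NUDT21 averaged 156 ± 5.99 TPM over the controls and 159 ± 3.88 TPM over the KO+OE libraries (SD, n = 2 each), with a log2 difference of 0.027 (-0.086 to 0.14, adjusted p = 0.980, limma). This row can hold reads of the edited gene and of the lentiviral copy, so it does not check the labels. The 6 markers of pluripotent cells summed to 3166 to 3202 TPM in the 4 libraries, each at 1 TPM or more. The 4 endoderm markers were all under 1 TPM, with SOX17 at 0 in every library. Under 1 TPM were also 3 of 4 mesoderm, 2 of 3 ectoderm and 3 of 5 fibroblast markers, with LUM at 0 throughout. The summed mesoderm markers were 7.35 to 8.38 TPM in the control and 6.12 to 6.64 TPM in KO+OE. That sum was mostly TNNT2, at 6.69 and 7.86 TPM in the control and 5.48 and 6.35 TPM in KO+OE. The ectoderm sums were 79.99 to 82.83 and 79.66 to 81.25 TPM, nearly all of it NES, and the fibroblast sums 67.81 to 68.59 and 67.17 to 68.77 TPM, nearly all of it collagen I genes. Their part in the members' values was not tested. In bulk RNA, fewer cells of a type and less RNA per cell cannot be told apart.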

How the data were processed

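Poly(A)+ RNA of 4 H9 libraries was sequenced as paired reads. The authors deposited 1 table of 60671 genes with a column per library and 0 further per-sample columns. The submitters' processing notes name HISAT2, featureCounts (Subread), DESeq2 and hg38, while versions, annotation release and strand setting are not given in the sources used here. The header names no unit. The deposited values were read as TPM, because they hold decimals and each column sums to 986853 to 987078. Without counts the depth and the counting error are unknown, and no count model was run. Values per gene do not separate 3′ ends.

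A mean of 1 TPM or more over the 4 libraries was required. Values were compared as log2(TPM + 1), which understates changes of low genes, with limma 3.58.1 (lmFit, eBayes with a mean-dependent prior, two-sided) in R 4.3.3, and p-values were adjusted by Benjamini-Hochberg over the 12319 genes tested. Sums and ratios were compared by an exact permutation test over libraries (scipy 1.17.1). Groups came from sample titles. The procedure was tested on simulated data. Alternatives were other pseudocounts, filters, scalings and priors, a replicate block, and leaving out each library. Transcript length and GC content came from GENCODE release 44. A planned comparison of protein sequences was not made.

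The members and lists were chosen with earlier results of these data known. The list of MYC turnover genes was shortened by 1 gene, which is not reported here. This was done with its values known but not because of them, and all list summaries leave that gene out. Genes named are NUDT21, the members and, in each list, the tested gene with the highest level, those with the largest positive and negative difference, and those with an unadjusted p under 0.05. MXI1, MYCNOS, markers and genes below the filter were named in addition, after their values were seen.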

Additional observations from a re-analysis of the deposited data

How the results depend on the processing

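No member and no list gene passed the adjusted threshold under any of the 13 alternatives, and the lowest adjusted p of a member lay between 0.873 and 0.953. The number of genes called over the whole table was 1, and it was 0 with pseudocounts of 0.1 and 5, with no filter, with a filter at 5 TPM, with quantile normalization and with the replicate block. It ranged from 0 to 1 when 1 library was left out. Genes at an unadjusted p under 0.05 numbered 656, 1314 with no filter, 412 with the filter at 5 TPM, and 554 to 634 when 1 library was left out. Of the 656, 42.5% were higher in KO+OE. With the 3 other scalings (median-ratio, quantile and without mitochondrial genes) this share was 50% to 51.2% of the genes at that threshold. The median log2 difference of all genes tested was then -0.00015 to 0.0010, against -0.012 in the main fit. MYCN had an unadjusted p under 0.05 with a pseudocount of 5, no filter, and the 3 other scalings, and MXD4 without control replicate 2. Replicate numbers did not pair the samples (correlation of deviations -0.049), and the replicate block, with 673 genes at an unadjusted p under 0.05, changed no call of a member.

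Of the values of 35 named genes under the other alternatives, 0 of 313 changed sign. Leaving out 1 library reversed 23 of 140 values, in 14 genes. Their log2 differences ranged from -0.061 to 0.025 for MYC, -0.089 to 0.0068 for MYCL, -0.16 to 0.17 for MAX, -0.25 to 0.21 for MXD3, -0.28 to 0.045 for MNT, -0.014 to 0.019 for MLX, -0.12 to 0.33 for MLXIPL, -0.18 to 0.14 for ZBTB17, -0.029 to 0.060 for USF2, -0.16 to 0.28 for GSK3B, -0.083 to 0.029 for SET, -0.55 to 0.032 for EIF4E, -0.065 to 0.033 for CDKN1A and -0.012 to 0.066 for NUDT21. The log2 difference between the groups ranged from -0.30 to 0.042 for the repressing sum. For the ratio of the activating sum to MAX it ranged from -0.12 to 0.19. For the ratio of the activating to the repressing sum it ranged from 0.026 to 0.32. Of the 10 list medians, 6 changed sign under at least 1 alternative, those of the other network proteins, the coactivators, the SIN3-HDAC and PRC1.6 genes, the turnover genes and the genes activated by MYC. The cause was not tested. With 2 libraries a group and no counts, what depth limits is unknown.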

Other observations

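The E-box was also followed beyond the members, in a comparison set up after the members' values were known. Of the tested genes, 1141 had CACGTG in at least 1 promoter window, and 7712 had windows without it. The median log2 difference was -0.013 in both sets, with 43.6% and 45.1% positive values. At an unadjusted p under 0.05 in limma there were 59 genes with the motif (5.17%) and 339 without it (4.40%), and 0 genes of either set passed the adjusted threshold. The median level was 12.7 TPM with the motif and 9.01 TPM without it. Among the other lists, the motif was in 2 of 5 windows of the MLX targets (40.0%), which were also chosen as targets. It was in 3 of 16 windows of the MYC turnover genes (18.8%) and 3 of 17 of the coactivators (17.6%). The PRC1.6 partners had it in 1 of 9 (11.1%) and the SIN3-HDAC genes in 1 of 19 (5.26%). It was in no window of the other network proteins, the other E-box factors, the genes repressed by MYC or the transcripts at the loci.

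Replicate 1 exceeded replicate 2 in both groups for 8 of the 10 members, and for 7 of the 8 tested, against 28.3% of all genes tested. The exceptions were MXD1 and MNT. The log2 ratio of replicate 1 to replicate 2 was 0.49 in the control and 0.36 in KO+OE for MXD3, and 0.36 and 0.14 for MAX. This too was noticed after the values were seen, and no cause was tested.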
